A study of Mus musculus with 6 samples.

Results

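TGF beta and BMP signalling genes were followed in the hearts of Cav1 knockout and wild-type mice. The set holds 32 genes chosen by name and sorted here by role into ligands, latent-complex proteins, receptors, Smads, and targets or feedback genes. All 32 had at least 1 probe set that the array's platform annotation gives to that symbol alone, 71 probe sets in all, out of 18193 genes on 34945 such probe sets. The brightest probe set of each gene, by its mean over the 6 hearts, was used for counts, and the weaker ones that were tested are given beside it. Of the 71 probe sets 16 were too dim to be tested.

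RNA came from heart tissue of male mice aged 5 to 6 months and fasted for 6 hours, with 3 Cav1KO samples and 3 wild-type (WT) samples, 1 Affymetrix array each. Each sample is called a heart below. The Cav1KO titles carry no replicate number, so Cav1KO replicates are numbered here in the order in which the samples are listed. The labels give neither strain nor the part of Cav1 that was deleted, and since they do not state that the samples are separate animals, the p-values cover only the spread among the arrays, which may be technical. Cav1 encodes caveolin-1, the coat protein of the small membrane pits called caveolae.

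TGF beta ligands are secreted in a latent complex, held by latent TGF beta binding proteins in the matrix until they are released. The active ligand joins a type II receptor to a type I receptor, which phosphorylates Smad2 and Smad3, whereas BMP ligands act through Smad1, Smad5 and Smad9. Both groups enter the nucleus with Smad4, and Smad6 and Smad7 restrain the signal. In the heart the TGF beta arm is known for its part in fibroblast activation, and the BMP arm with Acvrl1 and Eng for its part in vessels. In cultured cells TGF beta receptors have been found in caveolae, from which they can be directed to degradation.

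Values are intensities after quantile normalisation, which gives all arrays the same distribution. Differences are Cav1KO minus WT in log2(intensity + 16). The added 16 makes the changes of dim probe sets look smaller than they are. Tests are limma's, with Benjamini-Hochberg adjustment over the 22519 probe sets in the upper 50% by mean, and a gene is said to rise or fall only at an adjusted p under 0.05. The targeted gene was measured first: Cav1 had intensities of 118, 101 and 101 in Cav1KO hearts and 3853, 3836 and 4216 in WT hearts. None of the 32 genes lies on chromosome 6, which carries Cav1, by the RefSeq table. Spearman's correlation between arrays ran from 0.989 to 0.997, and WT replicate 1 had the lowest trimmed mean, 154.6 against a highest of 167.6. For the tissue label, all 10 cardiomyocyte genes were bright enough to be tested, the dimmest of them at a mean intensity of 5748.

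Of the 30 members bright enough to be tested, Smad1, Tgfbr2 and Bmp6 rose in Cav1KO hearts, none fell and 27 did not pass. Bmp2 and Smad9 lay below the limit on brightness and were not tested. Over all genes the same test called 4.02% (2.97% higher and 1.05% lower in Cav1KO), from 462 of 11486 genes. The median log2 difference was 0.10 over the 30 members and -0.014 over all genes tested. In 12 members every Cav1KO heart lay above every WT heart, against 13.4% of all genes, and in 1 member every Cav1KO heart lay below, against 15.2%, or 28.7% of all genes in either direction. Of the members' 25 weaker tested probe sets 2 were called, both of Smad1 and both higher, against 3.17% of all probe sets. Without WT replicate 1, the array with the lowest trimmed mean, only Smad1 was called, and the same held without WT replicate 3, Cav1KO replicate 1 or Cav1KO replicate 2.

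**Figure D1:**
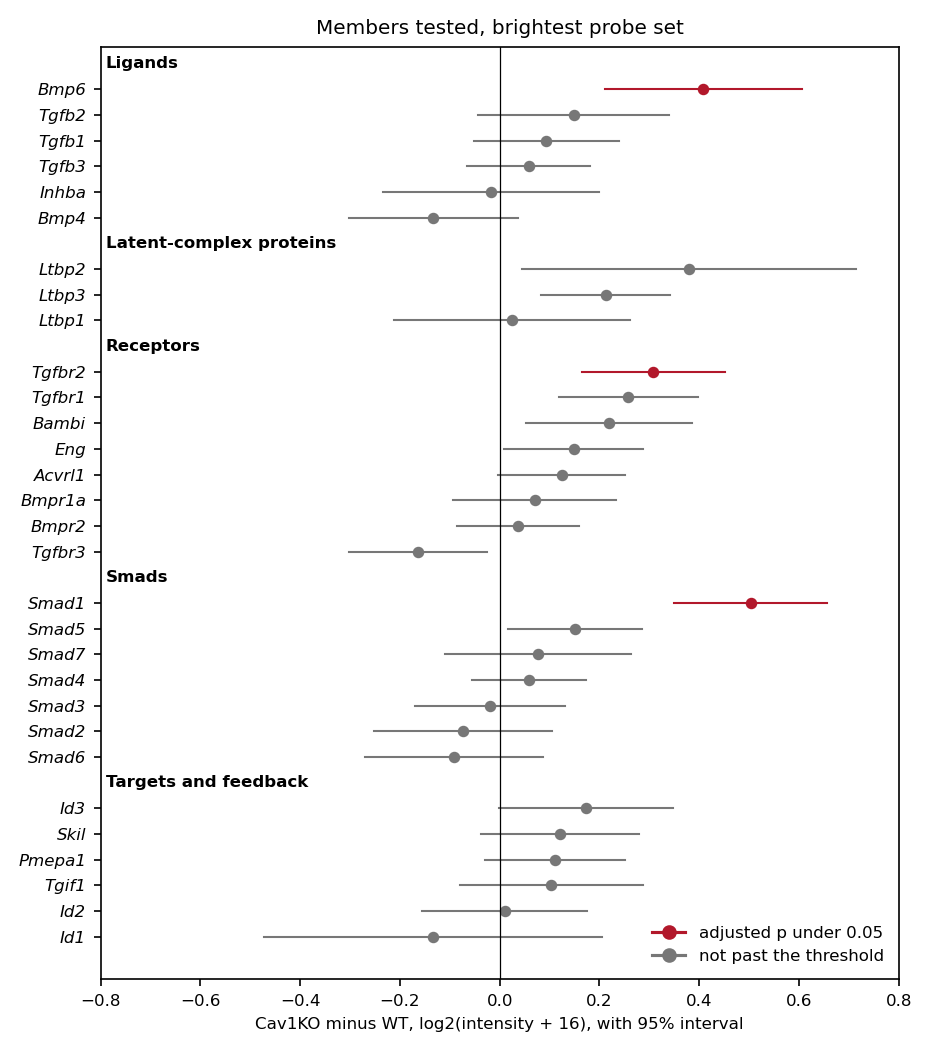
Cav1KO minus WT difference in log2(intensity + 16) for the 30 members tested, with unadjusted 95% intervals from limma, grouped by role. Smad1 at 0.50, Bmp6 at 0.41 and Tgfbr2 at 0.31 (red) passed the threshold, and the 27 grey members ran from -0.16 for Tgfbr3 to 0.38 for Ltbp2.

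Smad1, which carries the BMP signal from receptor to nucleus, had the largest difference of the 30. Its brightest probe set read 510.2, 553 and 523 in Cav1KO hearts and 335, 390.1 and 382 in WT hearts. The groups did not overlap, and WT replicate 1 was the lowest heart. The log2 difference, a rise, was 0.50 with a SE of 0.068 (limma adjusted p = 0.00635), or 1.42-fold. Both weaker probe sets rose too. The second read 370, 347 and 376 in Cav1KO hearts and 221, 265 and 245 in WT hearts, a log2 difference of 0.55 (limma adjusted p = 0.00556). The dimmest read 170, 164 and 164 in Cav1KO hearts and 137, 116 and 124 in WT hearts, with 0.36 (limma adjusted p = 0.0299). On all 3 probe sets each Cav1KO heart therefore lay above each WT heart. Smad1 was also the sole member called under every one of the 16 alternative settings, and its lowest difference, 0.44 without WT replicate 1, still passed. Over those settings its limma adjusted p ran from 0.00286 to 0.0399.

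Tgfbr2, the type II receptor that binds TGF beta first, had intensities of 1010.0, 1075 and 1071 in Cav1KO hearts and 890.5, 886 and 768 in WT hearts. The groups did not overlap, and WT replicate 3 was the lowest. It rose by a log2 difference of 0.31 (SE 0.063, adjusted p = 0.0379 by limma). A weaker probe set had a difference of 0.22 and did not pass (limma adjusted p = 0.12), although its groups did not overlap either.

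Bmp6, a BMP ligand also known from the liver as a regulator of iron balance, had intensities of 449, 420.1 and 348 in Cav1KO hearts and 291, 306 and 303 in WT hearts. All Cav1KO hearts were above all WT hearts, but they spread over a wider range than the WT hearts. On its single probe set it rose by a log2 difference of 0.41 (SE 0.087, adjusted p = 0.0425 by limma). Bmp6 and Tgfbr2 passed narrowly. Bmp6 no longer passed as deposited (limma adjusted p = 0.0503) or without any single array other than Cav1KO replicate 3, and Tgfbr2 no longer passed without any single array other than WT replicate 2. Over the 16 settings the limma adjusted p ran from 0.00857 to 0.157 for Bmp6 and from 0.0125 to 0.14 for Tgfbr2.

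**Figure D2:**
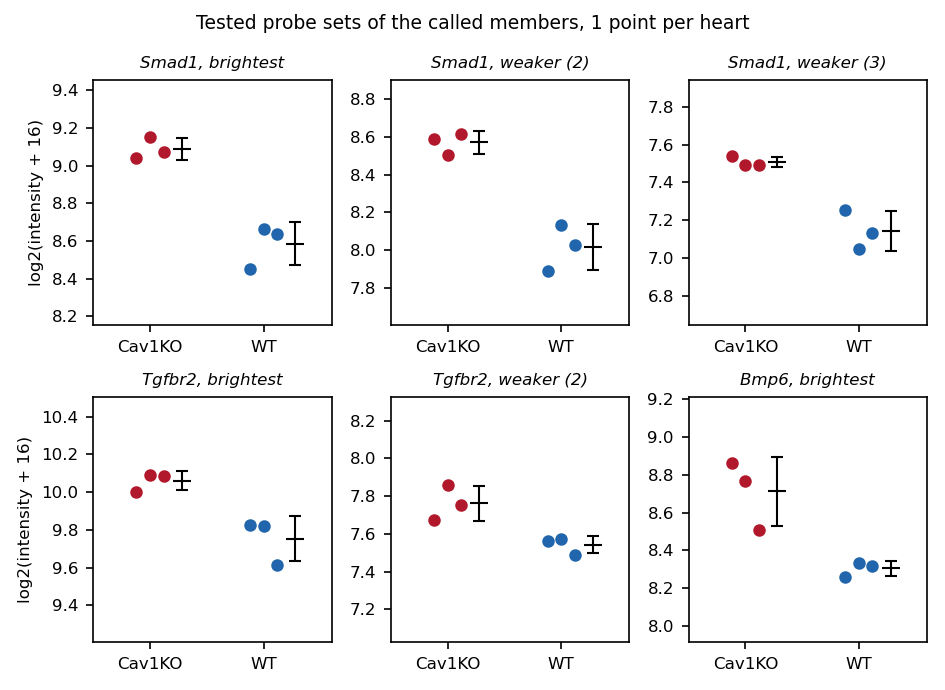
Log2(intensity + 16) in each heart (points) with the group mean and SD (black), for every tested probe set of Smad1, Tgfbr2 and Bmp6, with Cav1KO left of WT. In each panel all 3 Cav1KO hearts lie above all 3 WT hearts, and each vertical axis spans the same log2 range.

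For the 3 members called, the 250 bases before their annotated starts are shown, from RefSeq on GRCm38.p6, 5′ to 3′ on the gene's strand. Of the 32 members 21 had an entry in that table. Capitals mark CAGAC or its reverse complement GTCTG, the core of the Smad binding element. The letters GGCGCC, a GC-rich element bound by BMP Smads, were searched as well and were found in none of the 3.
Smad1 (chr8:79399429-79399678, minus strand): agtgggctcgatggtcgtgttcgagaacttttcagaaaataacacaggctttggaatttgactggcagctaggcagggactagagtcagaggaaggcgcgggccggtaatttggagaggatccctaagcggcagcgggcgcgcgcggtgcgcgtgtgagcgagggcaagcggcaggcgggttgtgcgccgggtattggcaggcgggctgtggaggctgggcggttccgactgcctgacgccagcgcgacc
Tgfbr2 (chr9:116175364-116175613, minus strand): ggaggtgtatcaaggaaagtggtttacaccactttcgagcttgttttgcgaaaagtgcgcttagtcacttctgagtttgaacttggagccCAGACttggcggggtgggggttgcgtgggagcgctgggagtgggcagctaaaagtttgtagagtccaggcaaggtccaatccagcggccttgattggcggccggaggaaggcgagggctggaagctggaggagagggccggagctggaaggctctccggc
Bmp6 (chr13:38345466-38345715, plus strand): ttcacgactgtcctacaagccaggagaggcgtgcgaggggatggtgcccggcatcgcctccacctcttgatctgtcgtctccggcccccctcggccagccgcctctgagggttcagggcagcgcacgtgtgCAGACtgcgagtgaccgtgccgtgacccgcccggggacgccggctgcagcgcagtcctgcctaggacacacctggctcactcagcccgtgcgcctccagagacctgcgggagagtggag
CAGAC or GTCTG was found once in the Tgfbr2 window, starting 160 bases before the start, and once in the Bmp6 window, 119 bases before it. In the Smad1 window these letters were not found. Such a match is frequent: 42.2% of all 32851 windows of this length held one, and 14 of the 29 windows of the members. GGCGCC was in 9.59% of all windows and in 6 of the 29 of the members. Matches describe the sequence and show no binding.

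Among the ligands, 1 of 6 tested rose, Bmp6, and 5 did not pass. Tgfb2, one of the TGF beta isoforms, had 167, 155 and 171 in Cav1KO hearts and 158, 128 and 155 in WT hearts at its brightest probe set, and the groups overlapped (difference 0.15, limma adjusted p = 0.353). A weaker probe set of Tgfb2 read 93.8, 91.8 and 98.2 in Cav1KO hearts and 57.4, 78.2 and 68.1 in WT hearts. Its groups did not overlap, with a difference of 0.41 just short of the threshold (limma adjusted p = 0.055). The probe sets of Tgfb2 thus gave different sizes. Bmp4, a BMP ligand of development and vessels, had 215, 179 and 201 in Cav1KO hearts and 223, 226 and 207 in WT hearts, with overlapping groups and a log2 difference of -0.13 that did not pass. Inhba, which encodes the subunit of activin A, had 77.7, 85.3 and 86.5 in Cav1KO hearts and 98.1, 72.9 and 83.5 in WT hearts, with no separation. Tgfb1, the main isoform of injury and fibrosis, stood at 0.093 and Tgfb3 at 0.058, both short of the threshold. Their 95% intervals, -0.052 to 0.24 for Tgfb1 and -0.065 to 0.18 for Tgfb3, hold no rise as large as that of Bmp6. Bmp2 was dim in all hearts, at 31.6, 31.4 and 28.4 in Cav1KO hearts and 24.3, 28.4 and 27.8 in WT hearts.

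No latent-complex protein passed, though the differences of all 3 were positive. Ltbp3, which helps TGF beta leave the cell in its latent form, had 579, 642 and 636 in Cav1KO hearts and 513, 552 and 529.7 in WT hearts. Its groups did not overlap (difference 0.21, limma adjusted p = 0.0874), and a weaker probe set stood at 0.11 with overlap. Ltbp2, a matrix protein of the same family that does not bind latent TGF beta, had 76.0, 99.0 and 79.2 in Cav1KO hearts and 44.4, 71.3 and 70.7 in WT hearts. Here too the groups did not overlap, and the size of the difference, 0.38, was set in part by WT replicate 1, the lowest heart: without that array it was 0.21. Ltbp1 had 319, 309 and 408 in Cav1KO hearts and 358, 349 and 305 in WT hearts, which overlapped, and Cav1KO replicate 3 was the highest.

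Of the 8 receptor genes 1 rose, Tgfbr2, and 7 did not pass. Tgfbr1, the type I partner of Tgfbr2, had 451, 473 and 491 in Cav1KO hearts and 398, 413 and 365 in WT hearts. Every Cav1KO heart lay above every WT heart, and the difference of 0.26 fell short of the threshold (limma adjusted p = 0.0628). It passed with array weights (limma adjusted p = 0.0297) and among the upper 25% of probe sets (limma adjusted p = 0.04), and its limma adjusted p ran from 0.0297 to 0.242 over the alternatives. A weaker probe set of Tgfbr1 had a difference of 0.22 with overlapping groups. Bambi, a decoy receptor without a kinase, had 368, 346 and 301 in Cav1KO hearts and 285, 291 and 285 in WT hearts, without overlap but short of the threshold (difference 0.22, limma adjusted p = 0.15).

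No receptor of the vessel wall or of the BMP arm passed. Acvrl1, the type I receptor of endothelial cells, had 245, 253 and 246 in Cav1KO hearts and 227, 217 and 235 in WT hearts, separate but short of the threshold (difference 0.12, limma adjusted p = 0.261). Its weaker probe set stood at 0.20 (limma adjusted p = 0.176). Eng, the endothelial co-receptor endoglin, had a difference of 0.15 at its brightest probe set, with overlap, and of 0.044 at a weaker one. The BMP receptors Bmpr1a and Bmpr2 stood at 0.070 and 0.036. Bmpr2 had 1359, 1232 and 1306 in Cav1KO hearts and 1343, 1219 and 1238 in WT hearts, and its 95% interval, -0.086 to 0.16, leaves no room for a change as large as that of Tgfbr2. In Bmpr1a the 4 weaker tested probe sets ran from -0.036 to 0.084, and that of Bmpr2 stood at 0.019.

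Tgfbr3, the co-receptor betaglycan that presents ligand to Tgfbr2, was the one member whose Cav1KO hearts all lay below the WT hearts. It had 888, 929 and 1041 in Cav1KO hearts and 1101, 1050.1 and 1050.1 in WT hearts. The difference of -0.16 did not pass (limma adjusted p = 0.187), and a weaker probe set gave -0.17 with overlap. Within each heart the log2 difference between Tgfbr2 and Tgfbr3 was set against the same in the other group: it averaged 0.14 in Cav1KO hearts and -0.33 in WT hearts, with no overlap. The gap of 0.47 had an exact permutation p of 0.1, two-sided, the smallest that 3 against 3 hearts allow. This was 1 of 5 such pairs, chosen after their values were seen, and the adjusted p over the 5 was 0.125. Smad1 less Smad5, Smad1 less Id1 and Bmp6 less Bmp4 had gaps of 0.35, 0.64 and 0.54 with no overlap and the same exact and adjusted p. As the pairs were picked by their values, such gaps restate the single-gene differences and add no separate support. Tgfbr1 less Acvrl1 overlapped, at 0.84 to 0.95 in Cav1KO hearts and 0.60 to 0.88 in WT hearts (exact permutation p = 0.3).

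**Figure D3:**
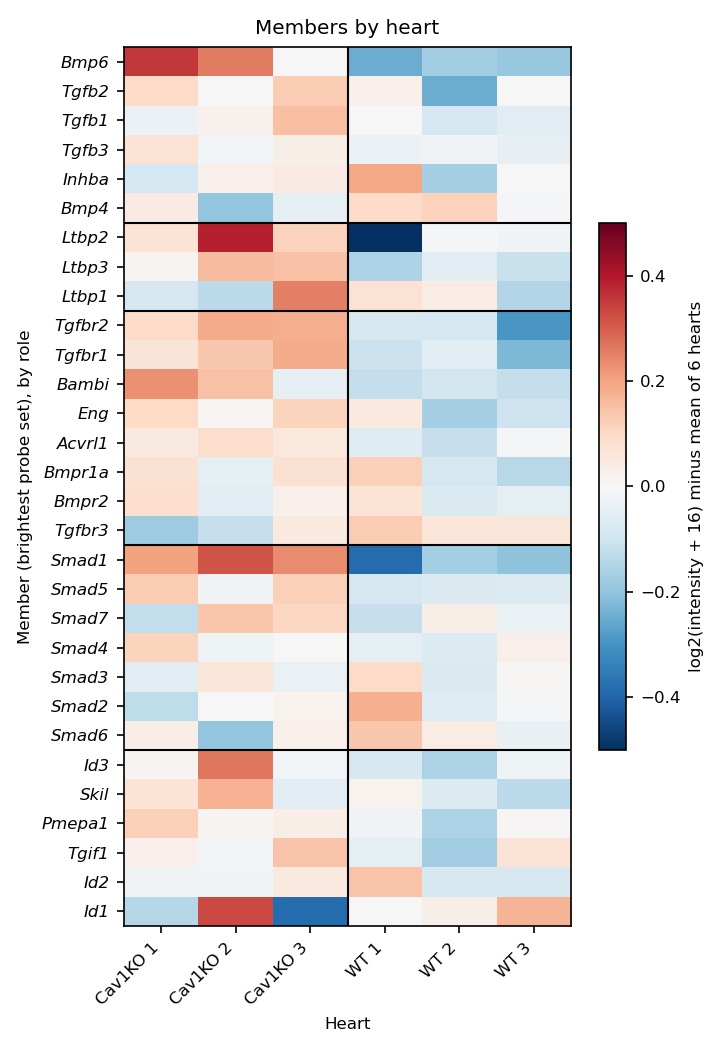
Log2(intensity + 16) of each tested member in each heart, less its mean over the 6 hearts, by role from ligands (top) to targets and feedback genes (bottom), with Cav1KO hearts left of WT hearts. Smad1, Tgfbr2, Tgfbr1 and Bmp6 split between the groups, while Id1 and Ltbp1 vary inside the Cav1KO group.

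Of the 7 Smads tested, 1 rose, Smad1, and 6 did not pass. Smad5, the close relative of Smad1 in the BMP arm, had 308, 278 and 307 in Cav1KO hearts and 265, 267 and 267 in WT hearts. The groups were apart, with a difference of 0.15 short of the threshold (limma adjusted p = 0.207), and the weaker probe sets stood at 0.019 and 0.24. Smad9, the other Smad of that arm, read 16.5, 18.0 and 17.1 in Cav1KO hearts and 19.6, 17.3 and 16.5 in WT hearts, too dim to be tested.

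The Smads of the TGF beta arm and the inhibitory Smads did not pass. Smad2 had 164, 181 and 183 in Cav1KO hearts and 207, 173 and 180.5 in WT hearts, which overlapped (difference -0.074, limma adjusted p = 0.615), and a weaker probe set agreed in sign. Smad3 stood at -0.019 at its brightest probe set, with weaker ones at -0.18 and 0.0089. Smad4, the partner shared by both arms, stood at 0.058, with weaker probe sets at 0.11 and -0.00032. Smad6, which restrains mainly the BMP arm, had 255, 215 and 253 in Cav1KO hearts and 275, 255 and 242 in WT hearts, overlapping, with a difference of -0.091. Smad7, which restrains both arms, stood at 0.077, with a weaker probe set at 0.074. At their brightest probe sets the 95% intervals of these 5 genes lay between -0.27 and 0.26, below the rise of Smad1, and the interval of Smad3's weaker probe set at -0.18 reached down to -0.39.

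None of the 6 target or feedback genes passed. The Id genes encode inhibitors of differentiation and are direct targets of BMP Smads. Id1 had 631, 881 and 531 in Cav1KO hearts and 699, 712 and 787 in WT hearts. The Cav1KO hearts lay on both sides of the WT hearts, with replicate 2 the highest and replicate 3 the lowest of all 6. Its difference of -0.13 had the widest error of the 30 brightest probe sets (SE 0.15, limma adjusted p = 0.637). Id2 had 240.0, 240.2 and 252 in Cav1KO hearts and 270.2, 229 and 229 in WT hearts, overlapping, while a slightly weaker probe set had 218, 245 and 269.8 in Cav1KO hearts and 179, 211 and 203 in WT hearts. The groups were apart on that probe set and the difference of 0.28 did not pass (limma adjusted p = 0.131). Id3 had 739.6, 883 and 726 in Cav1KO hearts and 693, 655 and 723 in WT hearts, just separate, with Cav1KO replicate 2 the highest, as for Id1 (difference 0.17, limma adjusted p = 0.251).

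The feedback genes of the TGF beta arm lay close to each other. Skil, which encodes the Smad co-repressor SnoN, had 493, 531 and 450.4 in Cav1KO hearts and 476, 447 and 427 in WT hearts, overlapping, with a difference of 0.12. Pmepa1, which binds receptor Smads, stood at 0.11, and its weaker probe sets at 0.22 and 0.27. Tgif1, a co-repressor, stood at 0.10. All of these had limma adjusted p of 0.233 or more.

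Other genes of the pathway were taken from a list of 93, of which 83 had a probe set of their own and 68 were tested. Tgfbi, Cd109, Klf10, Fstl1 and Fkbp1a rose, Sost fell and 62 did not pass, again against 4.02% of all genes. Their median log2 difference was -0.026. By role, 2 of 15 targets rose, 2 of 9 receptor and receptor-binding genes rose, 1 of 8 antagonists rose and 1 fell, and none of 11 ligands, 8 activation genes or 17 intracellular regulators passed.

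Tgfbi, the matrix protein named for its induction by TGF beta, had 486, 519 and 554 in Cav1KO hearts and 316, 336 and 316 in WT hearts. It rose by 0.66 (SE 0.061, limma adjusted p = 0.00129), and its 3 weaker probe sets rose by 0.52 to 0.65. Klf10, a transcription factor induced early by TGF beta, had 271, 269.5 and 257 in Cav1KO hearts and 172, 171 and 179 in WT hearts. It rose by 0.57 (SE 0.057, limma adjusted p = 0.00173). For both genes every Cav1KO heart lay above every WT heart. Ccn2, another gene induced by TGF beta, stood at -0.15 and did not pass (limma adjusted p = 0.501). Of the 15 targets tested 13 did not pass. The differences of 7 were positive and of 8 negative, with a median of -0.013.

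Cd109, a co-receptor that in skin cells dampens TGF beta signalling, had 92.0, 88.9 and 100.1 in Cav1KO hearts and 55.9, 52.6 and 57.0 in WT hearts, a rise of 0.62 (SE 0.069, limma adjusted p = 0.00297). Fstl1, a secreted follistatin-like protein, had 1192, 1245 and 1096 in Cav1KO hearts and 797, 796 and 803 in WT hearts. It rose by 0.55 (SE 0.053, limma adjusted p = 0.00146), and its other probe set rose too. Fkbp1a, which binds the type I receptor and also the ryanodine receptor, rose by only 0.21 (limma adjusted p = 0.031). Sost, the Wnt antagonist sclerostin of the same cystine-knot family as the BMP antagonists, was dim, at 48.2, 47.3 and 56.7 in Cav1KO hearts and 68.3, 78.8 and 69.6 in WT hearts, and fell by 0.40 (SE 0.083, limma adjusted p = 0.0371). In each of these 4 genes the groups were apart. Fkbp1a and Sost no longer passed without any single array other than Cav1KO replicate 3, and Sost not with no filter. Over the alternatives the limma adjusted p ran from 0.0239 to 0.138 for Fkbp1a and from 0.0199 to 0.159 for Sost.

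Weaker probe sets of a further pair of genes, chosen after their values were seen, also passed. For Acvr1, a type I BMP receptor, the weaker one rose by 0.29 (limma adjusted p = 0.0402) and the brightest stood at 0.27 (limma adjusted p = 0.0956). For Inhbb, an activin subunit, they disagreed: the weaker rose by 0.50 (limma adjusted p = 0.0159) while the brightest stood at -0.23.

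**Figure D4:**
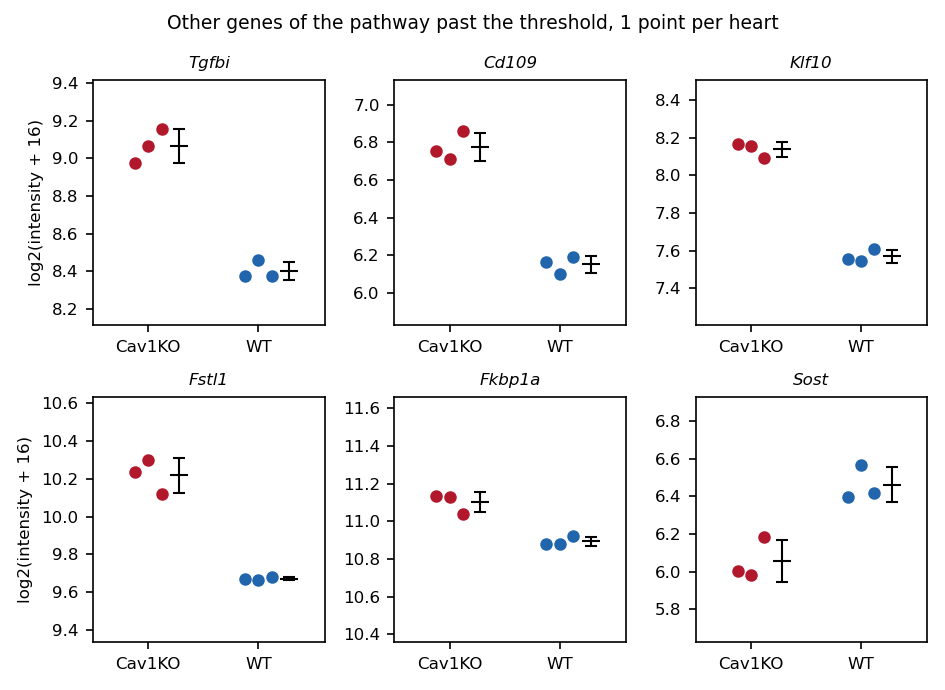
Log2(intensity + 16) in each heart (points) with the group mean and SD (black) for the 6 other pathway genes past the threshold, brightest probe set, with Cav1KO left of WT and the same log2 range on every vertical axis. Tgfbi, Cd109, Klf10, Fstl1 and Fkbp1a are higher in all 3 Cav1KO hearts and Sost is lower.

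Markers of several cell types moved with genotype, and in bulk tissue a change in cell number and a change in RNA per cell cannot be told apart. Of 12 endothelial markers 6 rose: Pecam1, Tek, Tie1, Cldn5, Esam and Erg. Emcn and Egfl7 were apart above WT but did not pass, and Cdh5, Flt1 and Kdr overlapped, at 0.13, 0.084 and -0.039. Robo4 went the other way, with every Cav1KO heart below every WT heart (difference -0.25, limma adjusted p = 0.12). The summed intensity of the 12 was 6453 to 7433 in Cav1KO hearts and 5454 to 5601 in WT hearts. Of 5 lymphatic markers 3 rose, Lyve1, Flt4 and Mmrn1, the last on chromosome 6 with Cav1. Prox1 stood at 0.026 and Pdpn at 0.19, both with overlap and short of the threshold. The lymphatic sums were 1275 to 1473 in Cav1KO hearts and 812 to 1021 in WT hearts. Lyve1 alone had means of 596 in Cav1KO hearts and 287 in WT hearts. Of 10 macrophage markers 3 rose, Mrc1, C1qa and Ptprc, with sums of 7334 to 7709 in Cav1KO hearts and 5883 to 6764 in WT hearts. The differences of 9 were positive. Fcgr1 stood at -0.10 with overlap at its brightest probe set, while a weaker one rose by 0.51 (limma adjusted p = 0.0338). The ratio of the mean sums, Cav1KO over WT, was 1.24 for the endothelial, 1.53 for the lymphatic and 1.20 for the macrophage list, beside 1.42-fold for Smad1, 1.33-fold for Bmp6 and 1.24-fold for Tgfbr2. Their part in the rise of these 3 genes, and of Tgfbi, Cd109, Klf10, Fstl1 and Fkbp1a, was not tested.

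Other lists moved less or the other way. Of 10 fibroblast markers 2 rose, Col1a1 and Col3a1. Col1a2, on chromosome 6, and Lum were apart above WT but did not pass, at 0.33 and 0.25. A weaker probe set of Col1a2 rose by 0.42 (limma adjusted p = 0.00624). The other 6 overlapped, among them the 2 brightest, Gsn at -0.018 and Dcn at 0.10. The fibroblast sums overlapped, at 24160 to 28524 in Cav1KO hearts and 22524 to 24365 in WT hearts, with a ratio of the mean sums of 1.11. Of 9 smooth muscle and pericyte markers none passed, with sums of 17693 to 18045 in Cav1KO hearts and 17203 to 17410 in WT hearts. Of 10 cardiomyocyte markers none passed, and the ratio of the mean sums was 0.997. Several read near the top of the array, where quantile normalisation leaves little room to differ: Tnni3 read 14115.5 in all 3 WT hearts. The ratio therefore cannot show that this list was unchanged. None of 18 weaker tested probe sets passed. Some were apart below WT, of Myh6 at -0.45, Atp2a2 at -0.31, Tnnt2 at -0.25 and Ttn at -0.12 and -0.14, while others overlapped. Of the adipocyte markers 4 of 6 had a probe set, and 2 of these (Cidec and Lep) were too dim to be tested. None passed: Adipoq stood at -1.89 (limma adjusted p = 0.109) and Retn at -0.25, both with overlap. The sums were 169 to 417 in Cav1KO hearts and 386 to 1001 in WT hearts, with a ratio of the mean sums of 0.396.

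**Figure D5:**
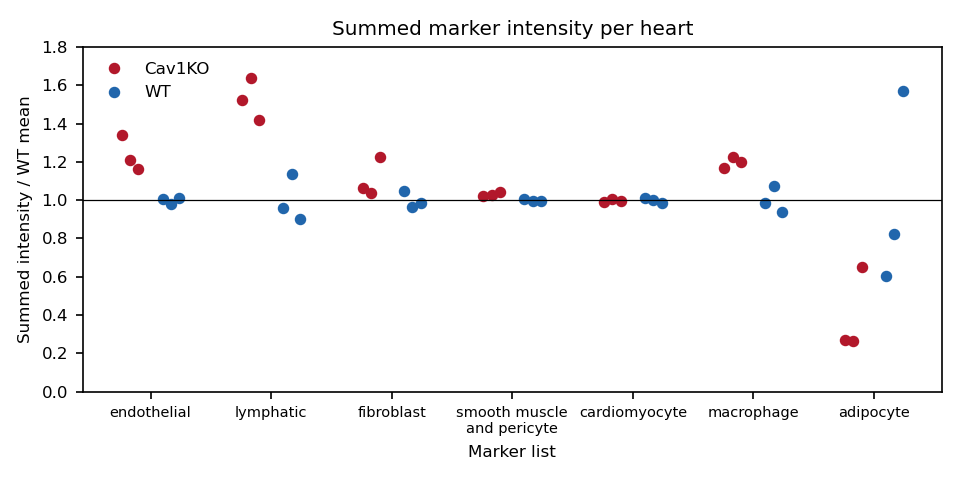
Summed intensity of each marker list in each heart, divided by the mean of the 3 WT hearts, with Cav1KO (red) left of WT (blue) for each list. The endothelial, lymphatic, macrophage and, by less, the smooth muscle and pericyte sums of all Cav1KO hearts lie above those of all WT hearts. The fibroblast sums overlap and the adipocyte sums vary widely. The cardiomyocyte sums lie at 1 in both groups, in a range where quantile normalisation leaves little room to differ.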

How the data were processed

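The table that the authors deposited gives a linear intensity per array for 45101 probe sets on 6 arrays (3 Cav1KO, 3 WT). Per the labels' protocols, 2 ug of Trizol-extracted, column-cleaned total RNA was labelled with biotin using the Affymetrix One-Cycle kit. The submitters' processing notes list GCOS 1.4 without its use. Summarisation, background correction and scaling are not given in the sources used here.

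Control probe sets (64) were left out. Because trimmed means (2% at each end) differed by 8.42% between arrays, above a limit of 5%, quantile normalisation of the deposited intensities was used. The model of log2(intensity + 16) was lmFit with eBayes (trend) from limma 3.58.1 in R 4.3.3, Cav1KO minus WT, no covariate. The 22519 probe sets in the upper 50% by mean were tested with Benjamini-Hochberg adjustment, and the threshold was 0.05. The number of arrays limits the precision. The fit was also run on simulated data with independent noise, where recovery was required only for changes of 2-fold or more. The members called here changed less, so that run does not bear on their calls.

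Genes were named from the platform annotation of 2016, only where a probe set has 1 symbol (34945 probe sets, against 932 with several). Of 93 other pathway genes 83 had such a probe set, and of 62 cell type markers 60. Ctgf is named Ccn2 there. Motifs were searched on both strands. All members are reported; values in every heart are given for members called, called under an alternative, or with the 2 largest or 2 smallest differences in their role, and other pathway genes are named where called. Further names were chosen after their values were seen. The members and lists were chosen with earlier results of these data known. The alternatives tried were other scalings, pseudocounts, filters, spread models, array weights, the mean over a gene's probe sets, and leaving out each array.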

Additional observations from a re-analysis of the deposited data

How the results depend on the processing

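The 3 members called became 1, Smad1, with no filter, without the trend and when each gene's probe sets were averaged. Leaving out 1 array gave 1 to 2 members called and 4 to 7 other pathway genes. The median log2 difference of the members was 0.098, 0.15 as deposited, 0.17 centred on the array median, and 0.063 to 0.12 when 1 array was left out, while that of all probe sets tested was -0.0096, 0.032 as deposited and 0.051 centred. All probe sets called numbered 714 (531 higher, 183 lower), 635 as deposited (577 higher, 58 lower), 626 centred (585 higher, 41 lower), 411 without the trend, 1171 with array weights, and 189 to 749 when 1 array was left out. Of 30 members, 26 were called in none of the 16 alternatives and 23 kept their sign in all. Inhba, Smad3, Id2, Ltbp1, Smad2, Smad6 and Id1 turned sign in at least 1, never past the threshold. Tgfbi, Klf10, Fstl1 and Cd109 were called in every alternative in which they were tested, Sost and Fkbp1a in 8 each. Fkbp1a did not pass when centred (limma adjusted p = 0.0524, 0.0239 to 0.138 over all). The cause of these shifts was not tested. No paired analysis was run, as the labels used here match no Cav1KO sample with a WT sample. The Cav1KO titles carry no replicate number, and the Cav1KO numbers used here follow the order of the samples. Array number and, for dim probe sets such as Bmp2 and Smad9, signal close to the floor limit what can be seen.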
